A study of Homo sapiens with 6 samples.

Results

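The ephrin, semaphorin and other axon guidance genes are cell surface and secreted proteins first described as cues for growing axons, and epithelial tumour cells express many of them. Members were chosen by gene symbol among the protein-coding rows: Eph receptors and ephrins, semaphorins, plexins and neuropilins, Slits and Robos, and netrins with the UNC5 receptors. This gave 63 genes out of 29185 in the table, of which 16074 were protein-coding. By family there were 12 Eph receptors, 8 ephrins, 18 semaphorins, 11 plexins and neuropilins, 6 Slits and Robos, and 8 netrins and UNC5 receptors. Another 4 genes whose symbols start in the same way (SEMA3B-AS1, SEMA3F-AS1, SEMA6A-AS1 and SEMA6A-AS2) are noncoding and were not counted as members.

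RNA was sequenced from SKOV3, an established human ovarian cancer cell line, with KLF5 silenced by a short hairpin RNA (sh-KLF5, genotype label KLF5 knockdown) or with the control (sh-NC), with 3 libraries in each group. The sample labels give the genotype of the control cells as WT, whereas the design text calls them sh-NC, so whether they carried a control hairpin rests on that name. Stable cells were made with a pLKO.1 vector carrying EGFP and a puromycin resistance gene and kept after puromycin selection, which leaves the cells that took up the vector; the sources used here do not say which hairpin was sequenced or whether the 3 libraries of a group came from separate cultures, so the p-values measure only the spread between these libraries, which may be technical. The question was which guidance genes differed in level when KLF5, a zinc finger transcription factor, was silenced.

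KLF5 itself had normalized counts (reads divided by 1 factor per library) of 4371, 4425 and 4494 in sh-NC and of 1745, 1439.9 and 1436 in sh-KLF5, a log2 fold change of -1.53 (SE 0.12, adjusted p = 2.47e-07, limma), and 34.8% of the control level remained. Depth lay between 15852319 and 17543896 reads per library, so that 3 reads, the upper limit a count of 0 allows, equalled 0.171 to 0.189 CPM (reads scaled to the library total). The pairs of sh-KLF5 libraries with replicate 1 differed most among replicates (chi-square per degree of freedom 23.5 and 30.4, against 4.33 to 10.4 in the other pairs), and no pair of libraries was close enough to be a repeat deposit of 1 library. Of 7 epithelial carcinoma markers, 6 had over 3 reads in every library. The normalized counts of all 7 summed to 53719 to 65753 in sh-NC and to 28374 to 38808 in sh-KLF5. KRT7 and KRT8 made up most of that sum (means of 32104 and 21816 in sh-NC), and both were lower, as was KRT18. EPCAM (log2 fold change -0.03), PAX8 (-0.25), ERBB2 (-0.33) and KRT19 (1.14) did not pass an adjusted p of 0.05 (limma). Fibroblast markers (5 of 5 in the table) summed to 647 to 1029 in sh-NC and 259 to 585 in sh-KLF5. DCN, COL1A2 and PDGFRA were lower, while COL1A1 and LUM did not pass an adjusted p of 0.05 (limma). Neuron markers (4 of 5) summed to 49.3 to 59.6 and 52.1 to 54.3. Among them SNAP25 had 3 reads or fewer, and only TUBB3 exceeded 3 in every library. Endothelial markers (4 of 5, with CDH5 at 3 reads or fewer) summed to 73.6 to 88.1 and 46.1 to 84.4. TEK was higher, with 8, 1 and 1 reads in sh-NC and 17, 11 and 12 in sh-KLF5. PECAM1, the largest part of that sum, had overlapping groups and did not pass. Immune markers (3 of 4, with PTPRC and CD68 at 3 reads or fewer) summed to 149 to 223 and 191 to 379. COL1A2, PDGFRA and TEK had enough reads for testing only in the group where they were high. The part of these markers in the guidance gene results was not tested.

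Eph receptors are receptor tyrosine kinases that bind ephrins on a neighbouring cell, and both sides of the contact can signal. Semaphorins bind plexins, and most secreted class 3 semaphorins need a neuropilin as co-receptor, while plexins act on small GTPases and the actin cytoskeleton. Slits are secreted ligands of Robo receptors, and netrins bind DCC and UNC5 receptors, which in many tissues also control adhesion, migration and survival.

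Over all guidance genes, 45 had enough reads to be tested and 18 did not, among them EPHA7, EPHB1, SLIT3, UNC5A and NRP2, which never exceeded 3 reads. Calls required a log2 fold change above 1 or below -1 together with a p-value, adjusted over 15803 tested genes by Benjamini-Hochberg, under 0.05. By this rule EPHB2, SEMA7A and NRP1 rose in sh-KLF5, 3 of the 45, where 1.9% of all tested genes were called higher. EPHA5, EFNB3, SEMA6B and UNC5B fell, 4 of the 45, where 3.37% of all tested genes were called lower. In either direction 7 members (15.6% of those tested) were called against 5.28% of all tested genes. The shares over tested members, here and in what follows, are descriptions only, because a gene needed 0.605 CPM in 3 libraries to be tested. EPHA5, EFNB3 and SEMA6B reached that level in the 3 sh-NC libraries and in 0 of the sh-KLF5 libraries, and UNC5B in 3 and 2. EFNA2, which was not called, reached it in 0 sh-NC libraries and 3 sh-KLF5 libraries. Genes with few reads were thus tested through the group where they were high.

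Without the fold threshold, 8 members were higher and 7 lower at an adjusted p under 0.05, that is 33.3% of the tested members, against 6.04% higher, 6.85% lower and 12.9% in either direction among all tested genes. The libraries of the groups did not overlap for 14 members that were higher and 10 that were lower, where 15.4% and 15.9% of all tested genes behaved so, and in either direction this was 53.3% of the tested members against 31.3% of all tested genes. Genes passed in both directions in 4 of the 6 families, and the members' median log2 fold change was 0.0018, next to -0.0023 for all tested genes, while the median size of the change regardless of sign was 0.37 and 0.22. Because these are bulk libraries, a lower level per cell and fewer cells carrying a transcript cannot be told apart.

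**Figure D1:**
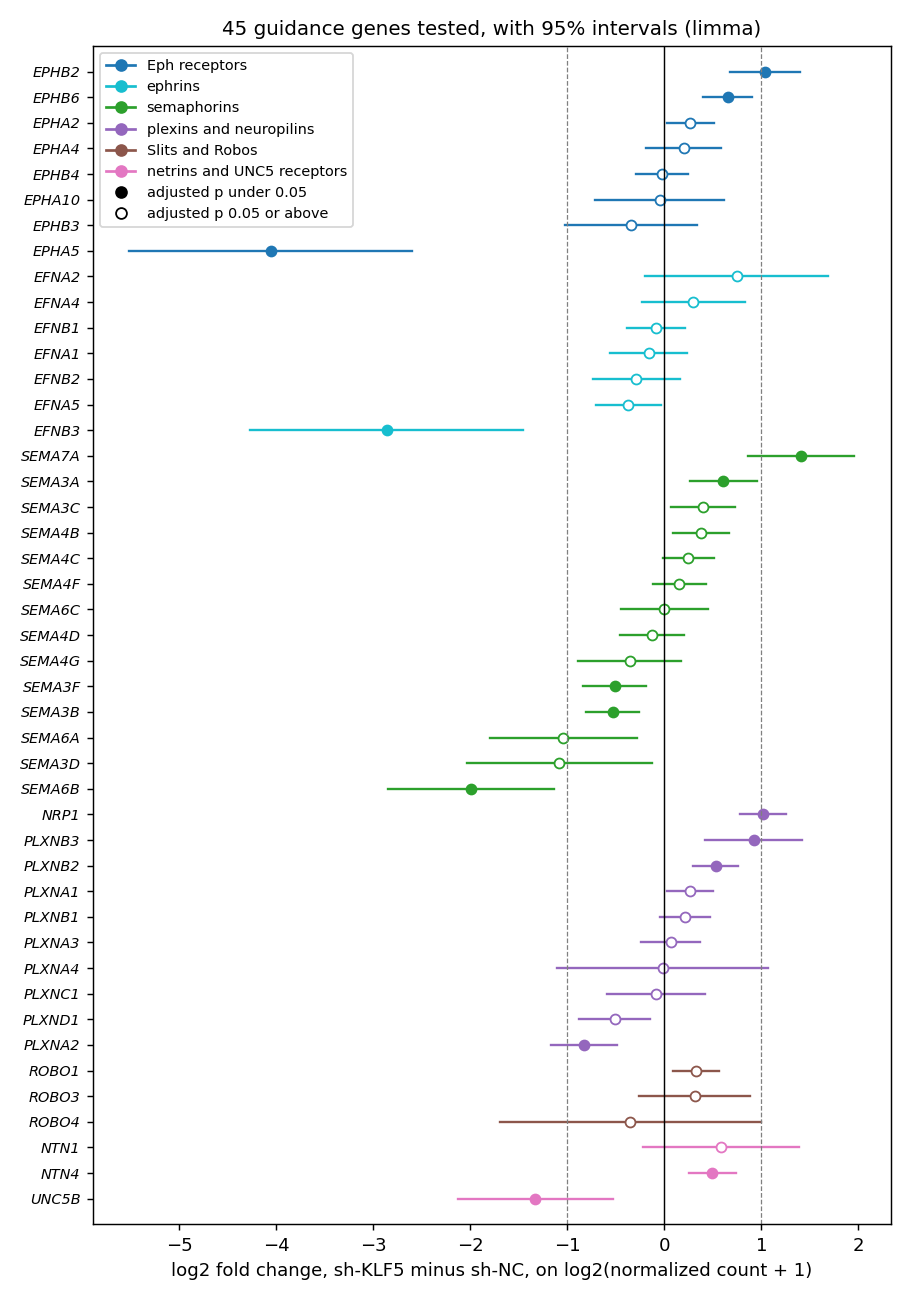
Log2 fold change of normalized counts + 1 (sh-KLF5 against sh-NC, horizontal axis, with 95% confidence intervals as bars) for the 45 tested guidance genes, arranged by family. The estimates run from -4.06 for EPHA5 to 1.41 for SEMA7A, and each of the families with more than 3 tested genes has estimates on both sides of 0.

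EPHA2, a receptor tyrosine kinase abundant in many carcinomas, is the member that the paper mentions. Its discussion cites work in basal-like breast cancer, in which TNF-α partly promotes stemness by activating a KLF5-EphA2 axis. Those are other cells than SKOV3, and the values here are RNA levels, with no TNF-α treatment named for these libraries. EPHA2 lies on chromosome 1 from 16124337 to 16156087 (- strand). It was also the member with the highest level per kilobase of gene length, with a mean normalized count per kilobase of 1148 in sh-NC and 1382 in sh-KLF5. In sh-NC it had 4914, 4349 and 5062 normalized counts, and in sh-KLF5 5706, 6126 and 5412. Every sh-KLF5 library lay above every sh-NC library, and the means were 4775 ± 376 and 5748 ± 359 (SD, n = 3 each). The log2 fold change was 0.27 (95% interval 0.03 to 0.51), with an adjusted p of 0.143 (limma), so EPHA2 did not pass the threshold. The exact two-sided permutation test gave p = 0.1, the smallest value that 3 against 3 libraries allow. When 1 library was left out at a time, the log2 fold change stayed between 0.20 and 0.31 and the adjusted p between 0.0655 and 0.488. The interval, which is not adjusted for the number of genes, holds no fall of EPHA2 and no rise beyond 0.51 on the log2 scale.

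EPHB2, a receptor of the ephrin-B ligands on chromosome 1 (22710839 to 22921500 of GRCh38, + strand), rose. The sh-NC libraries gave 200.2, 294 and 298 normalized counts and the sh-KLF5 libraries 463, 534 and 624, without overlap. The means were 264 ± 55.3 and 540.0 ± 80.6 (SD, n = 3 each), and the log2 fold change was 1.04 (SE 0.17, adjusted p = 0.000493, limma). The fold lay close to the threshold, and it was 0.86 without sh-NC replicate 1, the lowest control, and 0.93 without sh-KLF5 replicate 3, the highest silenced library, with the adjusted p at 0.00335 and 0.0028.

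EPHB6, a family member that lacks kinase activity, was also higher, by less than the fold threshold. It stood at 757, 694 and 804 in sh-NC and at 1109, 1297 and 1146 in sh-KLF5 (log2 fold change 0.65, SE 0.12, adjusted p = 0.00126). EPHB4, the receptor of ephrin-B2 and the EPHB gene with the highest level per kilobase, had overlapping groups, with means of 1542 ± 121 and 1525 ± 196 (SD, n = 3 each) and a log2 fold change of -0.02 (95% interval -0.29 to 0.24). The other tested Eph receptors, EPHA4, EPHA10 and EPHB3, overlapped between the groups and had log2 fold changes from -0.34 to 0.20. Of the 8 Eph receptors tested, 2 were higher, 1 was lower and 5 did not pass an adjusted p of 0.05.

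EPHA5, a receptor best known from the nervous system, on chromosome 4 (65319563 to 65670495, - strand), was the Eph receptor that fell. Its reads were 20, 14 and 14 in sh-NC, and no read was counted in any sh-KLF5 library. Set against 3 reads in each sh-KLF5 library, its level was at least 5.27-fold lower there (adjusted p = 0.000665, limma). The control level was low, with a mean normalized count of 15.8 ± 2.54 (SD, n = 3), and EPHA5 passed the filter through sh-NC alone. The call was kept when each library was left out in turn. With 0 reads in every sh-KLF5 library, leaving out 1 of them could not move the log2 fold change, which was -4.06 in each such fit. Of its exonic bases, 5.44% lie opposite EPHA5-AS1, which had between 0 and 3 reads, and the sources used here do not say whether counting used strand.

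KLF proteins bind GC-rich DNA, so the windows around the start sites of EPHA2, EPHB2, EPHA5 and SEMA7A, a semaphorin that rose, are shown. Windows of the other Eph receptors are not printed. They hold 250 bases before and 50 after the RefSeq start (GRCh38.p14), and capitals mark matches to CCNCNCCC or its reverse complement on the printed strand, where overlapping matches run together. EPHA2 lies at chr1:16156020-16156319 on the - strand, EPHB2 at chr1:22710589-22710888 on the + strand, SEMA7A at chr15:74433909-74434208 on the - strand and EPHA5 at chr4:65670440-65670739 on the - strand.
EPHA2: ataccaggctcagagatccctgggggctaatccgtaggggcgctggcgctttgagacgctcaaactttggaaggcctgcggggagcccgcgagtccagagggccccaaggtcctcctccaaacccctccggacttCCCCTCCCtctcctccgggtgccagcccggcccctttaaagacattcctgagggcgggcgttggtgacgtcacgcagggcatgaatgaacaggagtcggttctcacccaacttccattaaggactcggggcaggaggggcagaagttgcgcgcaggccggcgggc
EPHB2: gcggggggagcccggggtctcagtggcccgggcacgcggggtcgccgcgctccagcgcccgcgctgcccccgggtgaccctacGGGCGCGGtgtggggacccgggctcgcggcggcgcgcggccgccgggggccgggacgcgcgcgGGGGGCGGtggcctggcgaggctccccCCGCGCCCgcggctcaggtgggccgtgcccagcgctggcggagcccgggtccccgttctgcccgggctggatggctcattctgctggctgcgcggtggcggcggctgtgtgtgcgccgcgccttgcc
SEMA7A: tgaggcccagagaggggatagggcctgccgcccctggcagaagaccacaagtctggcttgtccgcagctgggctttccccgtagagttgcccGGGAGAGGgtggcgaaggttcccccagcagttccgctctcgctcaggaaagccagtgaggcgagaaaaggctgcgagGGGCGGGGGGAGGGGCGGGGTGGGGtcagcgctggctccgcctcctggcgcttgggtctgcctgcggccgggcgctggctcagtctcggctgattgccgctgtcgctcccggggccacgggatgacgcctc
EPHA5: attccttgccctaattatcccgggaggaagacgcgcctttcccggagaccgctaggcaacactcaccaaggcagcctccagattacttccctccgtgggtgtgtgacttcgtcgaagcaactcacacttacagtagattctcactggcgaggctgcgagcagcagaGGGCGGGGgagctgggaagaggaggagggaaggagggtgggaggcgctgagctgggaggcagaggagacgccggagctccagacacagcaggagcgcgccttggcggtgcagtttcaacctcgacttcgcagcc

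EPHA2 and EPHA5 had 1 match each, EPHB2 had 3 and SEMA7A had 6, of which 1 stands apart and the others overlap in 1 run. The GC content of the windows was 64.3% in EPHA2, 83.0% in EPHB2, 70.0% in SEMA7A and 61.7% in EPHA5. The pattern is common: it occurred in 56.2% of all 35116 RefSeq windows, and in 67 of the 82 windows (81.7%) found for 53 of the 63 members. Both the gene that fell to 0 reads and genes that rose held it, and a match describes the letters and not binding.

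**Figure D2:**
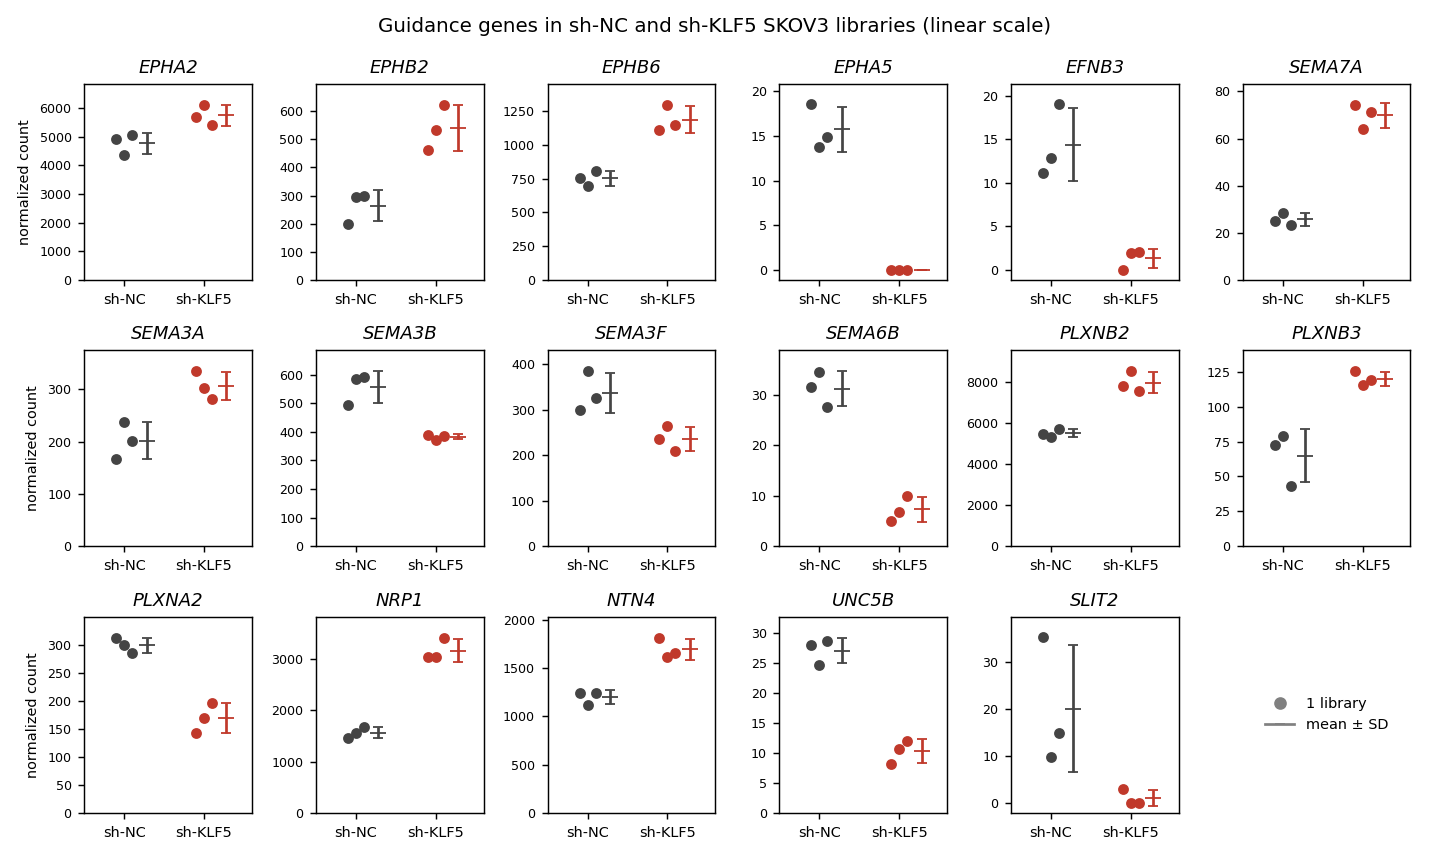
Normalized counts per library (points) with the mean and SD (bars) of sh-NC and sh-KLF5 for 17 guidance genes, each panel on its own linear axis. EPHA2 sits between 4349 and 5062 in sh-NC and between 5412 and 6126 in sh-KLF5, while EPHA5 and SLIT2 are at or near 0 in sh-KLF5.

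Among the ephrins, the membrane-bound ligands of these receptors, 7 were tested, of which EFNB3 fell and the other 6 did not pass. EFNB3, a transmembrane ligand of EPHB receptors on chromosome 17 (7705202 to 7711378, + strand), had 12, 13 and 18 reads in sh-NC and 0, 2 and 2 reads in sh-KLF5. Scaled by the library factors, the summed reads in sh-KLF5 were 9.37% of those in sh-NC, with an exact 95% interval for counting error only of 2.44% to 25.8%, and the adjusted p was 0.00806 (limma). Without sh-NC replicate 3, the highest library, the log2 fold change was -2.65 in place of -2.86 and the adjusted p was 0.0771, with the SE at 0.83 in place of 0.66.

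EFNA1, a ligand of EPHA2 held to the membrane by a lipid anchor, had the highest level per kilobase of the ephrins. Normalized counts were 829, 734 and 706 (sh-NC) and 922, 711 and 468 (sh-KLF5), so the silenced libraries spread to both sides of the controls (log2 fold change -0.16, 95% interval -0.56 to 0.24). EFNB1, the most abundant B-type ephrin per kilobase, stood at 349 ± 18.7 and 331 ± 43.1 (SD, n = 3 each), with a log2 fold change of -0.08 and an interval from -0.38 to 0.22. EFNA5 had a log2 fold change of -0.37 (adjusted p = 0.147) and EFNA2, at a mean of 8.28 in the controls, one of 0.74 (adjusted p = 0.313). EFNA3 and EFNA4 share 44.7% and 15.0% of their exonic bases with AL691442.1 on the same strand, so reads of these genes may have been split or dropped in counting.

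Semaphorins rose and fell, with SEMA7A and SEMA6B the largest changes. SEMA7A, a membrane-anchored semaphorin that binds integrins and PLXNC1, lies on chromosome 15 (74409289 to 74433958, - strand) and had normalized counts of 25.1, 28.6 and 23.3 in sh-NC and of 74.4, 64.0 and 71.2 in sh-KLF5. All silenced libraries were above all controls by a wide gap, with means of 25.7 ± 2.66 and 69.9 ± 5.30 (SD, n = 3 each) and a log2 fold change of 1.41 (SE 0.26, adjusted p = 0.00128, limma). The call was kept when each library was left out in turn. Its receptor PLXNC1 had overlapping groups at 78.1 ± 11.6 and 74.6 ± 19.0 (SD, n = 3 each; log2 fold change -0.08, 95% interval -0.59 to 0.42).

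SEMA6B, a transmembrane semaphorin on chromosome 19 (4542593 to 4559808, - strand), fell. Normalized counts were 31.7, 34.5 and 27.6 (sh-NC) and 5.10, 6.79 and 10.03 (sh-KLF5), so 23.4% of the control level remained (log2 fold change -1.99, SE 0.40, adjusted p = 0.00293), for a gene that passed the filter through sh-NC alone. This call, too, was kept when each library was left out in turn. SEMA6C, the class 6 member with the highest level per kilobase, stood at 78.9 ± 11.3 and 78.4 ± 1.71 (SD, n = 3 each), with overlapping groups and an interval of the log2 difference from -0.45 to 0.45. SEMA6A had non-overlapping groups with 46.2% of the control level left, but did not pass (log2 fold change -1.04, adjusted p = 0.0681, limma).

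Among the class 3 semaphorins, which are secreted, SEMA3B and SEMA3F were lower and SEMA3A was higher, all by less than the fold threshold. SEMA3B, described as a tumour suppressor in several carcinomas, had normalized counts of 493, 583 and 593 in sh-NC and of 390.4, 373 and 386 in sh-KLF5 (log2 fold change -0.53, SE 0.13, adjusted p = 0.0109, limma). SEMA3F, which signals mainly through NRP2, had 299, 384 and 326 in sh-NC and 234, 263 and 209 in sh-KLF5 (log2 fold change -0.51, SE 0.15, adjusted p = 0.0378, limma). Both genes lie on chromosome 3 with 78.5 kb between them, SEMA3F from 50155045 to 50189075 and SEMA3B from 50267558 to 50277546, on the + strand. NRP2, the neuropilin that SEMA3F prefers, never exceeded 3 reads. The SEMA3B adjusted p was 0.0798 and 0.0643 without sh-NC replicate 2 or 3, and that of SEMA3F was 0.0561, 0.224, 0.0989 and 0.112 without sh-NC replicate 1, 2, 3 or sh-KLF5 replicate 3. In these fits, with 1 library fewer, the log2 fold change was -0.50 and -0.48 for SEMA3B. For SEMA3F it was -0.59, -0.41, -0.53 and -0.43.

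SEMA3A, the classical repellent that binds NRP1, had normalized counts of 167, 237 and 202 in sh-NC and of 334, 303 and 281 in sh-KLF5. The groups did not overlap (log2 fold change 0.61, SE 0.16, adjusted p = 0.0207, limma), and the adjusted p was 0.133, 0.0707 and 0.0603 without sh-NC replicate 1, sh-NC replicate 3 or sh-KLF5 replicate 2. In these fits, with 1 library fewer, the log2 fold change was 0.48, 0.61 and 0.61 and the SE 0.18, 0.19 and 0.19. SEMA3D, 503 kb from SEMA3A on chromosome 7, had the opposite sign with a log2 fold change of -1.08 and an adjusted p of 0.134. SEMA3C, the most abundant class 3 gene per kilobase, had overlapping groups at 1506 ± 150.0 and 2021 ± 512 (SD, n = 3 each; log2 fold change 0.40, adjusted p = 0.109), with sh-KLF5 replicate 1 the highest at 2578.

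None of the 5 tested class 4 semaphorins, ligands of B-type plexins, passed an adjusted p of 0.05. SEMA4B, the most abundant of them per kilobase, had normalized counts of 1197, 1175 and 1323 in sh-NC and 1679.7, 1880.5 and 1296 in sh-KLF5 (log2 fold change 0.38, adjusted p = 0.0819). The other 4 had log2 fold changes from -0.35 to 0.25. SEMA5A, the class 5 member, had between 2 and 10 reads in every library and was not tested.

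NRP1, the co-receptor of class 3 semaphorins and of vascular endothelial growth factor, on chromosome 10 (33177492 to 33336262, - strand), rose with the smallest adjusted p of the called guidance genes. The controls held 1453, 1565 and 1664 normalized counts and the silenced libraries 3039, 3031 and 3412. The groups were far apart compared with the spread inside them, at 1561 ± 105 and 3161 ± 218 (SD, n = 3 each), and the log2 fold change was 1.02 (SE 0.11, adjusted p = 1.24e-05, limma). As with EPHB2, the fold threshold was missed without sh-NC replicate 1 (0.97) and without sh-KLF5 replicate 3 (0.96), with adjusted p of 0.000242 and 6.18e-05. In level per kilobase NRP1 went from 135 in sh-NC to 274 in sh-KLF5.

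Plexins, the main semaphorin receptors, changed within smaller limits. PLXNB2, a receptor of class 4 semaphorins, was after EPHA2 the most abundant member per kilobase. Its normalized counts of 5467, 5349 and 5738 in sh-NC and 7802, 8539 and 7559 in sh-KLF5 did not overlap, and it was higher by 0.53 on the log2 scale (SE 0.11, adjusted p = 0.00363, limma). PLXNB3, a receptor of SEMA5A, had 72.6, 78.8 and 43.5 in sh-NC and 125, 115 and 119 in sh-KLF5 (log2 fold change 0.92, SE 0.24, adjusted p = 0.0161). Without sh-NC replicate 1 or 2 its fold passed the threshold (1.02 and 1.08), and without sh-NC replicate 3, the lowest control, its adjusted p was 0.0785 (log2 fold change 0.66). PLXNB3 shares 20.4% of its exonic bases with SRPK3 on the same strand, a gene with 5 to 17 reads per library. PLXNB1 pointed the same way without passing (log2 fold change 0.21, adjusted p = 0.297).

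PLXNA2, a receptor of class 6 and, with neuropilins, class 3 semaphorins, was the plexin that was lower. It had normalized counts of 312, 299.5 and 285 in sh-NC and 143, 169 and 197 in sh-KLF5, so 56.6% of the control level remained (log2 fold change -0.83, SE 0.16, adjusted p = 0.00212, limma). PLXNA1, the most abundant A-type plexin per kilobase, had non-overlapping groups at 3107 ± 47.9 and 3749 ± 309.8 (SD, n = 3 each) but did not pass (log2 fold change 0.27, 95% interval 0.03 to 0.50, adjusted p = 0.134). PLXND1, the receptor of SEMA3E, stood at 253, 268 and 283 and at 176, 239.7 and 157 (log2 fold change -0.51, adjusted p = 0.0654). SEMA3E itself had 0 to 4 reads per library.

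**Figure D3:**
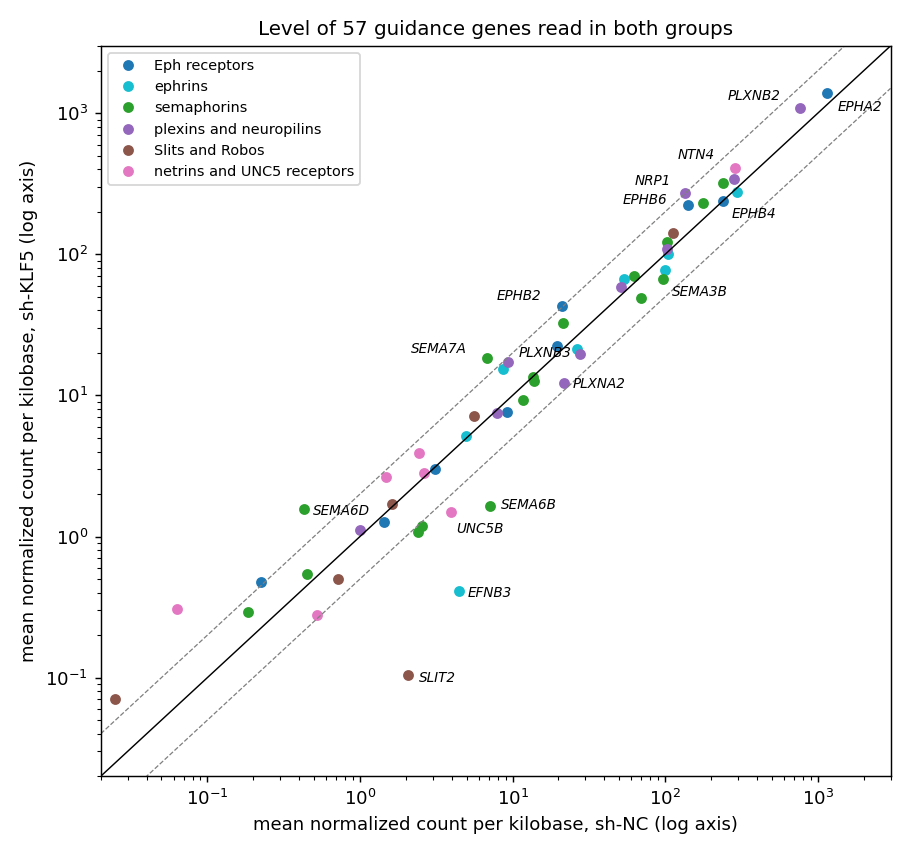
Mean normalized count per kilobase in sh-NC (horizontal) and sh-KLF5 (vertical), both on log axes, for the 57 guidance genes with reads in both groups; the solid line marks equal levels and the dashed lines a log2 difference of 1. EPHA2 and PLXNB2 lie at the top right, and SLIT2, EFNB3 and SEMA6B lie far below the lower dashed line.

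In order of level per kilobase over all 6 libraries, EPHA2 was followed by PLXNB2, NTN4, PLXNA1, EFNA1, SEMA3C, EPHB4, NRP1, SEMA4B, EPHB6 and ROBO1. The levels of these 11 genes per kilobase in sh-NC ran from 1148 for EPHA2 to 113 for ROBO1, and neighbours such as NTN4 (288), PLXNA1 (284) and EFNA1 (298) were close enough that their order differed between sh-NC and the mean over all libraries. Per kilobase, the called genes other than NRP1 were expressed well below these, with EPHB2 the highest of them.

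NTN4, a laminin-related netrin, was higher in sh-KLF5. It had normalized counts of 1243, 1118 and 1243 in sh-NC and 1816, 1614 and 1657 in sh-KLF5 (log2 fold change 0.50, SE 0.11, adjusted p = 0.00699, limma). Without sh-NC replicate 2, the lowest control, the log2 fold change was 0.45 and the adjusted p was 0.0719, with the SE at 0.14 in place of 0.11. NTN1, the netrin best known from commissural axons, had overlapping groups with means of 15.6 (sh-NC) and 24.8 (sh-KLF5) normalized counts (log2 fold change 0.59, adjusted p = 0.358).

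UNC5B, a netrin receptor that mediates repulsion, also on chromosome 10 (71212570 to 71302864, + strand), fell. The controls held 27.9, 24.6 and 28.6 normalized counts and the silenced libraries 8.15, 10.7 and 12.03, so 38.0% of the control level remained (log2 fold change -1.33, SE 0.37, adjusted p = 0.0277, limma). UNC5B reached the filter's level in every sh-NC library but not in sh-KLF5 replicate 1. The groups did not overlap, but the adjusted p was 0.114, 0.0879 and 0.1 without sh-NC replicate 1, 2 or 3 and 0.0543 without sh-KLF5 replicate 2. The log2 fold change in these fits, with 1 library fewer, ran from -1.39 to -1.29. The other UNC5 genes were not tested.

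ROBO1, the main Slit receptor here, had normalized counts of 1290.5, 1233 and 1158 in sh-NC and 1572, 1478 and 1569 in sh-KLF5, without overlap. The log2 fold change was 0.33 (95% interval 0.09 to 0.56) and the adjusted p was 0.0629 (limma). ROBO3 and ROBO4, neighbours on chromosome 11 with 2.22 kb between them, had estimates of 0.31 and -0.35 that did not pass.

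SLIT2, a ligand of ROBO1, had too few reads under the filter to enter the test. Its reads were 38, 10 and 14 in sh-NC and 3, 0 and 0 in sh-KLF5. The groups did not overlap, and the summed and scaled reads in sh-KLF5 were 4.87% of those in sh-NC, with an exact 95% interval for counting error of 0.979% to 14.9%. When no filter on low counts was used, its adjusted p was 3.94e-06 (limma). That p-value is on another scale than those of the main fit, since KLF5 had 2.75e-31 there in place of 2.47e-07. SLIT2 also entered the test and was called in the 5 fits that left out a library other than sh-NC replicate 1, with adjusted p from 0.000396 to 0.0315. With a library left out the filter asks for fewer libraries, and SLIT2 passed it through sh-NC alone. These p-values are therefore descriptions only. With at least 10 reads in each sh-NC library and 3 or fewer in each sh-KLF5 library, EPHA5, EFNB3 and SLIT2 formed a pattern that 0.931% of 15248 genes showed, and 0.0328% showed the reverse.

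**Figure D4:**
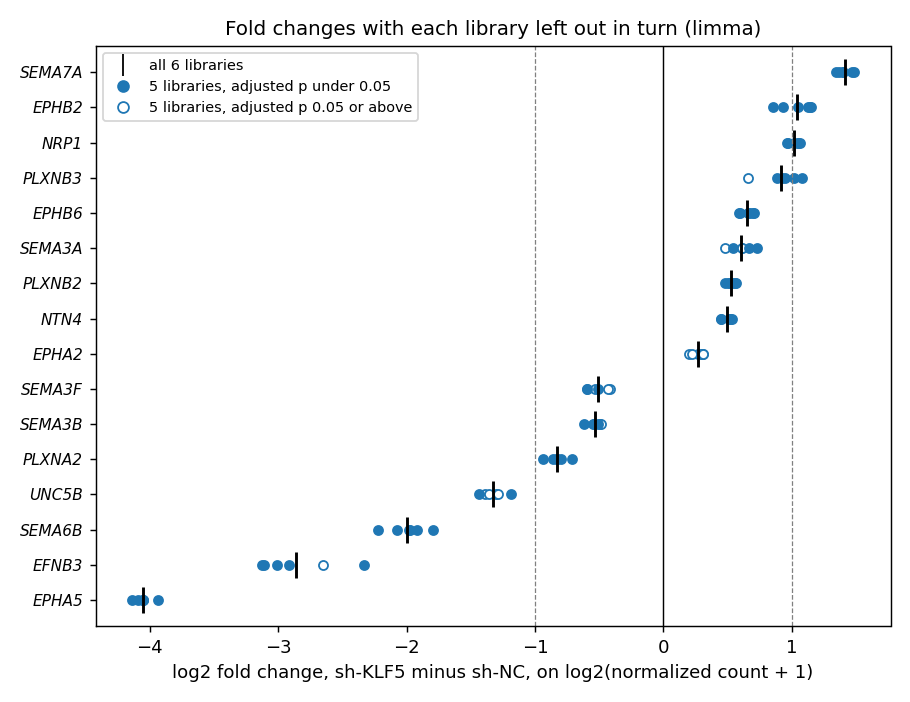
Log2 fold change (sh-KLF5 against sh-NC, horizontal axis) of EPHA2 and of each guidance gene with an adjusted p under 0.05, in the fit of all 6 libraries (vertical tick) and with each library left out (points, filled where the adjusted p is under 0.05); dashed lines mark -1 and 1. The plotted estimates kept their sign, and those of EPHB2 (0.86 at the lowest), NRP1 (0.96) and PLXNB3 (up to 1.08) crossed the fold threshold.

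The wider pathway was read from a list of 59 partners and effectors that are no members, of which 53 were in the table and 44 were tested. Of these, 5 rose and 3 fell by the same rule, or 18.2% of those tested against 5.28% of all tested genes (1.9% higher and 3.37% lower), and without the fold threshold 6 were higher and 8 lower. The median log2 fold change was -0.03, and 31.8% of the tested genes passed an adjusted p of 0.05, next to 12.9% of all tested genes. NRCAM and NTNG2, which reached the filter's level in 3 sh-KLF5 libraries and 1 sh-NC library each, were tested through the group where they were high, so these shares are descriptions too.

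At the cell surface, NRCAM, an adhesion molecule of the L1 family, rose from 5.59, 2.96 and 10.6 normalized counts to 53.0, 26.2 and 42.1 (log2 fold change 2.57, SE 0.46, adjusted p = 0.00118, limma). L1CAM, its relative and a partner of NRP1, was lower by just less than the fold threshold, from 4447, 4515 and 4897 to 2023, 2643 and 2512 (log2 fold change -0.96, SE 0.12, adjusted p = 5.71e-05). NTNG2, a membrane-anchored netrin-G, rose by 1.89 on the log2 scale (adjusted p = 0.0368), but its adjusted p was 0.16, 0.0558 and 0.19 without sh-NC replicate 3, sh-KLF5 replicate 1 or sh-KLF5 replicate 2. FLRT2, a ligand of UNC5 receptors, was higher by 0.87 (adjusted p = 0.0154).

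Inside the cell, MICAL2, of the actin-oxidizing MICAL family linked to plexins, rose from 933 ± 90.5 to 2066 ± 189.5 (SD, n = 3 each; log2 fold change 1.15, adjusted p = 7.24e-06, limma). ABLIM3, an actin-binding LIM protein, rose by 1.26 (adjusted p = 0.000304). KALRN, an exchange factor for Rac, rose by 1.69 (adjusted p = 0.00202). Its reads were 25, 15 and 24 in sh-NC and 48, 106 and 65 in sh-KLF5. KALRN shares 10.4% of its exonic bases with AC022336.2 on the same strand. NGEF, the exchange factor that acts downstream of EPHA receptors, fell by 2.36 on the log2 scale (adjusted p = 0.000114), and RGS3, a regulator of G protein signalling linked to ephrin-B ligands, fell by 1.66 (adjusted p = 1.73e-05). FARP2, VAV2, FYN and LIMK2 were lower with changes from -0.65 to -0.46.

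**Figure D5:**
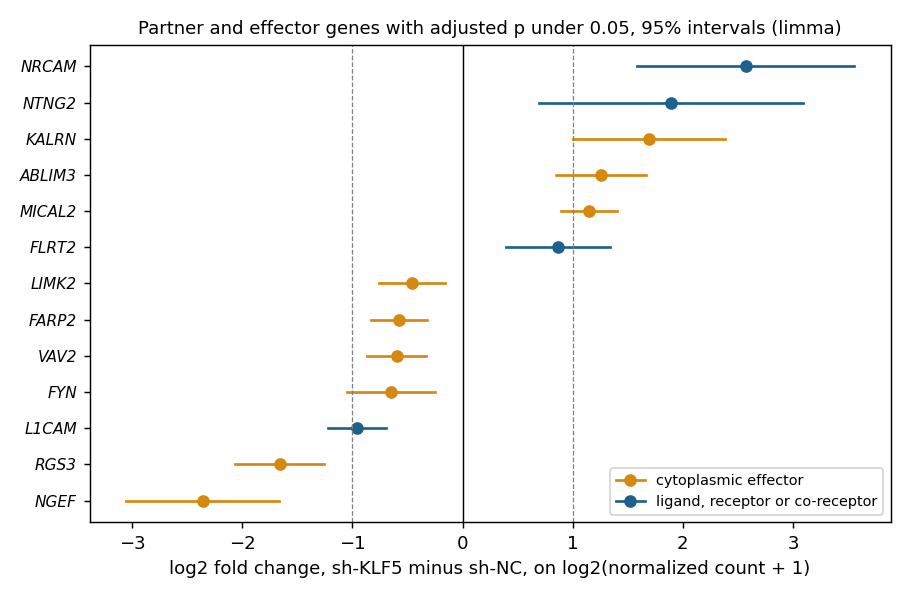
Log2 fold change (sh-KLF5 against sh-NC, with 95% confidence intervals) of 13 partner and effector genes with an adjusted p under 0.05, coloured as surface or secreted proteins or as cytoplasmic effectors. NRCAM is highest at 2.57 and NGEF lowest at -2.36.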

How the data were processed

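RNA-seq libraries of SKOV3 cells, sh-NC and sh-KLF5 with 3 each, were analysed. The authors deposited 1 table with a normalized count (a signal in the sense of reads divided by 1 size factor) per gene and library. The submitters' processing notes list HISAT2 2.0.5, featureCounts 1.5.0-p3, DESeq2 1.20.0 and the build hg38, with no roles. The table also holds the authors' group means, fold changes and p-values, none of which were used here. The smallest positive value of a library was taken as 1 read, and on that scale 100% of the values were whole within a tolerance of 1e-06, which gave the reads back. Of 29185 genes, 29180 had the coordinates of GENCODE 29 on GRCh38.

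The deposited unit is a normalized count, and limma 3.58.1 (R 4.3.3, moderated with a robust trend) was run on log2(normalized count + 1), which understates changes of genes with few reads. The recovered reads were used for the filter and for edgeR and DESeq2. The filter was filterByExpr of edgeR 4.0.16 with a minimum count of 10, and p-values were adjusted over all 15803 tested genes by Benjamini-Hochberg. Intervals for ratios of few reads are exact binomial and cover counting error only. Alternatives were TMM or library size scaling, edgeR, DESeq2 1.42.0, pseudocounts of 0.1 and 5, other filters, the replicate number as a block, and leaving out each library. The code was tested on simulated data.

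The members, the partner and marker lists and the rule for named genes were chosen with earlier results of these data known. The rule names KLF5, EPHA2, members with an adjusted p under 0.05, the most abundant member per kilobase in each family, members with at least 10 reads in each library of one group and at most 3 in each of the other, and called partners. Others are named for context after their values were seen, and 1 called partner that the counts include is not reported here. Figures were drawn with matplotlib 3.10.9.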

Additional observations from a re-analysis of the deposited data

How the results depend on the processing

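The counts of called members and partners stayed within 1.5 times those reported, except as follows. Without the fold threshold, 8 members were higher and 7 lower, in place of 3 and 4, and 8 partners were lower in place of 3. Requiring 10 or more reads per library throughout, 1 member was called lower and 3 partners higher in place of 4 and 5; that filter takes EPHA5, EFNB3, SEMA6B and UNC5B out of the test and leaves 37 members, and SEMA6A was then called lower. Leaving out 1 library at a time gave 1 to 4 members higher (1 without sh-KLF5 replicate 3), 3 to 5 members lower, 4 to 6 partners higher and 2 to 4 partners lower. TMM scaling and a pseudocount of 5 each left 2 partners lower.

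The same 7 members were called with TMM or library size scaling, edgeR, DESeq2 and both other pseudocounts, and with no filter SLIT2 was added to them. SEMA3F had an adjusted p of 0.0544 with library size scaling. Signs reversed only for genes that were not called: SEMA6C was at -0.0083 with edgeR, -0.011 with DESeq2 and between -0.12 and 0.083 with a library left out. In the same way EPHB4 ran from -0.096 to 0.086, EFNA1 from -0.39 to 0.10 (above 0 without sh-KLF5 replicate 3) and PLXNC1 from -0.28 to 0.068.

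Whether the replicate numbers of the labels pair the libraries was not settled. Deviations of same-numbered libraries from their group means correlated weakly, at 0.059, 0.033 and 0.0504. Each library correlated best with its own number, and differently numbered pairs ran from -0.0572 to -0.0011. With the replicate number as a block, 3 members were called higher and 4 lower, 5 partners higher and 3 lower, and 18 members had an adjusted p under 0.05, adding PLXND1, SEMA3C and SEMA4B. Depth limits genes near 10 reads per library, whose entry into the test depends on the filter.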

Other observations

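Of the 18 untested guidance genes, SEMA6D, a transmembrane semaphorin that binds PLXNA1, had non-overlapping groups like SLIT2, in the opposite direction, with 3, 3 and 5 reads in sh-NC and 21, 12 and 7 in sh-KLF5. UNC5D had 0, 1 and 1 reads in sh-NC and 1, 1 and 8 in sh-KLF5. EPHA1 varied among replicates as much as between groups, with 14, 1 and 6 reads in sh-NC and 2, 6 and 10 in sh-KLF5. EFNA3 had 15, 8 and 6 reads and 6, 20 and 4 reads. SLIT1 had 8, 8 and 4 reads and 1, 10 and 3 reads. These genes were chosen after their values were seen and were not tested.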
